A study of Homo sapiens with 12 samples.

Results

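The nuclear genes of respiratory complex I were described in the prostate cancer cell lines PC3 and DU145 with and without pentamidine. Members were the genes whose symbol marks a nuclear subunit (NDUFA, NDUFAB1, NDUFB, NDUFC, NDUFS and NDUFV) or an assembly factor named NDUFAF, with NDUFA4 left out. Of the 32077 genes in the count table, 45 matched, and 44 were kept because they had at least 10 counts in at least 3 samples. These were 36 subunits and 8 assembly factors. The gene left out, NDUFA7, had between 4 and 13 counts in every sample.

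Complex I takes electrons from NADH, passes them along iron-sulphur clusters to ubiquinone and pumps protons across the inner mitochondrial membrane. Its membrane arm is built around subunits encoded in mitochondrial DNA, whereas the core of its peripheral arm and all accessory subunits are encoded in the nucleus. The assembly factors help to join the pieces and are not part of the finished enzyme. Prostate tumour cells, like other growing cells, use the complex both for ATP production and to reoxidise NADH.

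Both are long-established androgen-independent lines from human metastases, and both carry the label wild type for genotype. Each line was cultured for 48 hours with 2.5 μmol/L pentamidine, a cationic antiprotozoal drug, or with vehicle, at 1000000 cells per well of a 6-well plate. Each of the 4 groups held 3 samples, and nothing in the labels says whether they were separate experiments, so that p-values measure the spread between these samples. Poly(A) RNA was counted, with 13514195 to 15131436 counts per sample. Expression is given as CPM, the count scaled to a fixed library total after TMM normalization, and changes were tested with edgeR's quasi-likelihood test. A log2 fold change is given as the estimate ± its standard error (SE), and sample values in the order of replicates 1 to 3. A gene was called when its Benjamini-Hochberg adjusted p over all genes tested was below 0.05. CPM is a share of the RNA counted, so neither the number of cells nor the RNA per cell can be read from it. A change shared by all mRNAs would not be seen. KLK3, the androgen-responsive gene of prostate-specific antigen, had at most 2 counts in any sample. PTPRC of leukocytes had at most 1 count, PECAM1 of endothelium at most 10, and the fibroblast collagens COL3A1 and COL1A1 at most 20 and 40. The epithelial keratin KRT8 was at 20.2 ± 1.51 CPM in PC3 and 2707 ± 89.3 CPM in DU145 vehicle cells (SD, n = 3), and KRT18 was at 155 ± 14.2 and 914 ± 23.6 CPM.

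The library labelled PC3 vehicle replicate 1 stood apart from its group in these genes. In it 42 of the 44 members lay below the mean of the other PC3 vehicle samples, with a median difference of -0.23 on the log2 scale against 0.015 for all genes. NDUFB2, a small membrane-arm subunit, was lowest, at 11.8 CPM against 22.6 and 24.2. NDUFAF8 went the other way, at 46.0 CPM against 17.5 and 20.8. The part of this library in each result was measured by leaving it out. As it was singled out for low values of these genes, leaving it out raises most PC3 vehicle means. The direction of such shifts therefore follows from that choice.

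**Figure D1:**
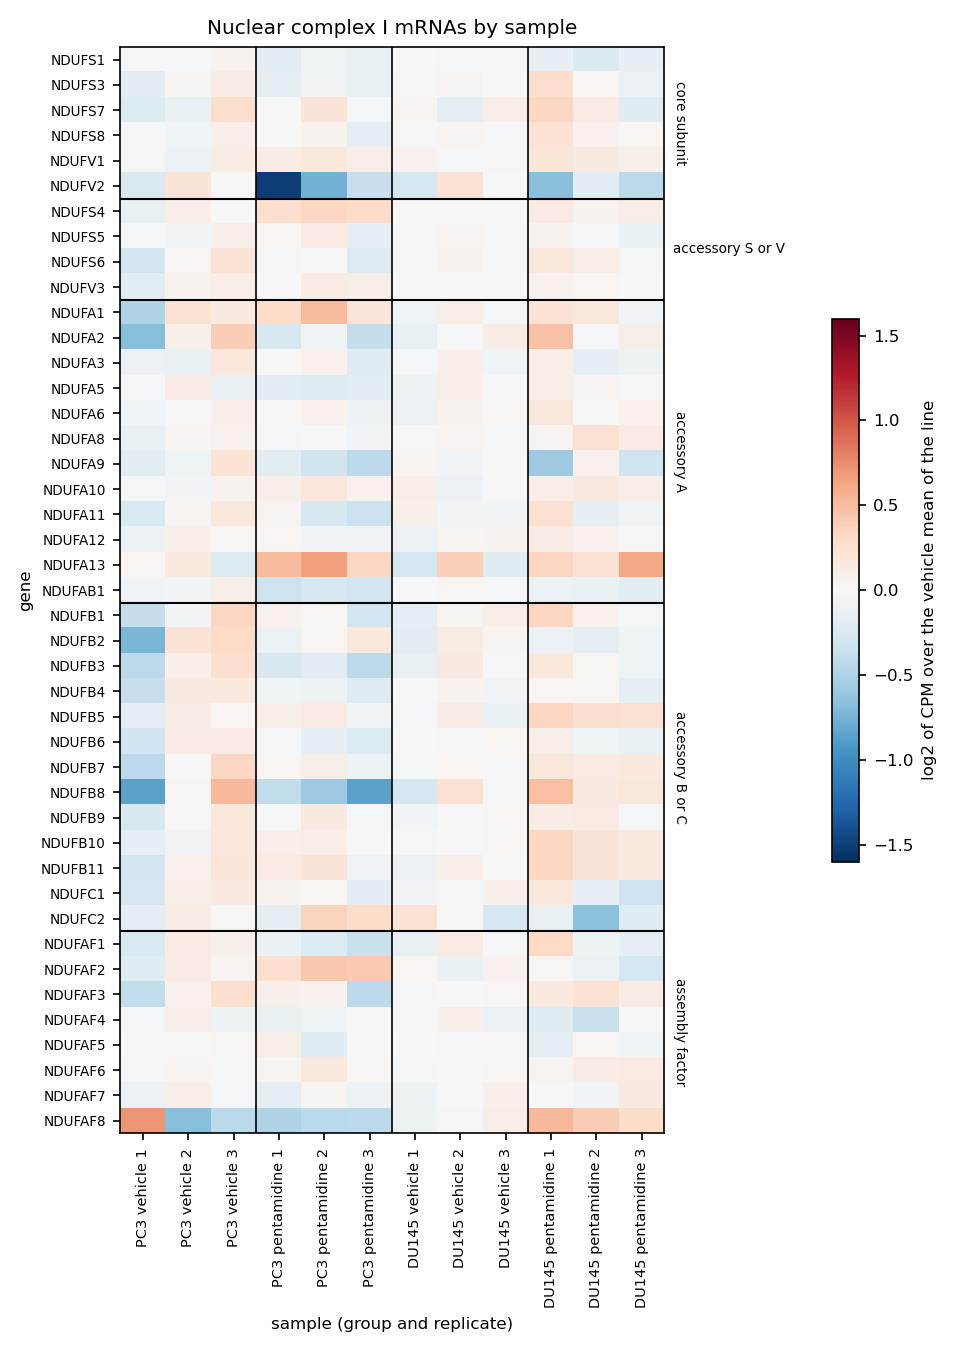
Each row is 1 of 43 nuclear complex I genes and each column 1 of the 12 samples, and the colour is the log2 ratio of the sample's CPM to the mean of the vehicle samples of the same line. Blue fills most of the column of PC3 vehicle replicate 1, which lay below the mean of the other PC3 vehicle samples in 42 of all 44 genes, and the other columns are mostly pale.

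Most nuclear complex I mRNAs were not called with pentamidine. In PC3 cells 5 of 44 members were called, where 43.4% of the 13861 genes tested were called. NDUFAF2, NDUFA1 and NDUFS4 rose and NDUFAB1 and NDUFA5 fell, beside 21.7% of all genes called higher and 21.7% called lower. In DU145 cells 9 of 44 members were called, where 34.0% of the 14313 genes tested were called. NDUFAF8, NDUFB5, NDUFB10, NDUFB11, NDUFB7, NDUFV1, NDUFA10 and NDUFS8 rose, beside 17.2% of all genes called higher, and NDUFS1 fell, beside 16.8% called lower. No member was called in both lines in the main edgeR fits or by DESeq2, and 30 were called in neither by the main fits. Shares of all genes called in both lines or in neither are not given here, so these counts are not read as particular to the members. NDUFAB1, NDUFA10, NDUFS1 and NDUFV1, 4 in all, had an unadjusted p below 0.05 in both lines. With all 12 samples in 1 fit, NDUFS1 and NDUFV1 were called in both lines. The members' log2 fold changes lay between -0.79 and 0.50 in PC3 and between -0.41 and 0.41 in DU145. None was therefore called by edgeR with an absolute log2 fold change above 1, where 4.75% of all genes in PC3 and 2.03% in DU145 were. By an unadjusted p below 0.05 from edgeR, 10 members passed in PC3, beside 6974 of the 13861 genes tested. In DU145 13 members passed, beside 6115 of the 14313 genes. DESeq2 called 3 members in PC3 and 6 in DU145, with 0 past that fold, and its share over all genes is not given here. The vehicle and pentamidine samples did not overlap for 8 members in PC3 (52.1% of all genes) and for 13 in DU145 (44.0% of all genes). An absolute log2 fold change of at most 0.25 was measured for 34 members in PC3 and 38 in DU145, which is 77.3% and 86.4%, against 52.2% and 68.0% of all genes tested.

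Subunits and assembly factors were set side by side without a test. The median log2 fold change in PC3 was -0.018 over the 36 subunits and -0.060 over the 8 assembly factors, beside 0.0046 over all genes. In DU145 it was 0.081 and 0.041, beside 0.0085 over all genes, and the assembly factor median was -0.011 without DU145 vehicle replicate 1. The subunit median was 0.021 in DU145 without pentamidine replicate 1. In PC3 it turned to 0.058 without vehicle replicate 3 and to 0.036 without pentamidine replicate 3. Among subunits 4 were called in PC3 (11.1%) and 8 in DU145 (22.2%), and among assembly factors 1 in each line (12.5%). Of all genes tested, 43.4% were called in PC3 and 34.0% in DU145. The sign was shared between the lines for 24 of 44 members (54.5%), and the share over all genes is not given here. For 31 members (70.5%) the fold change was more positive in DU145, beside 7787 of the 15226 genes tested for a difference between the lines.

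Without PC3 vehicle replicate 1, 13 members were called in PC3, where 43.6% of all genes were. Of these 11 were lower, where 21.7% of all genes were. That library was chosen for its low values of these members, so the shift towards lower changes is no separate result. NDUFA2, NDUFAF1, NDUFB3, NDUFB4, NDUFB6, NDUFB8, NDUFS1, NDUFS3 and NDUFS6 were gained, all lower, and NDUFA1 was lost. NDUFB3 and NDUFA2, membrane-arm and peripheral-arm accessory subunits chosen after their values were seen, then had log2 fold changes of -0.46 ± 0.079 and -0.47 ± 0.12 (SE). The subunit median was then -0.084 and that of the assembly factors -0.058. Without PC3 vehicle replicate 3 there were 9 calls, and without any one of the pentamidine samples there were 3, with the shares over all genes not given here.

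**Figure D2:**
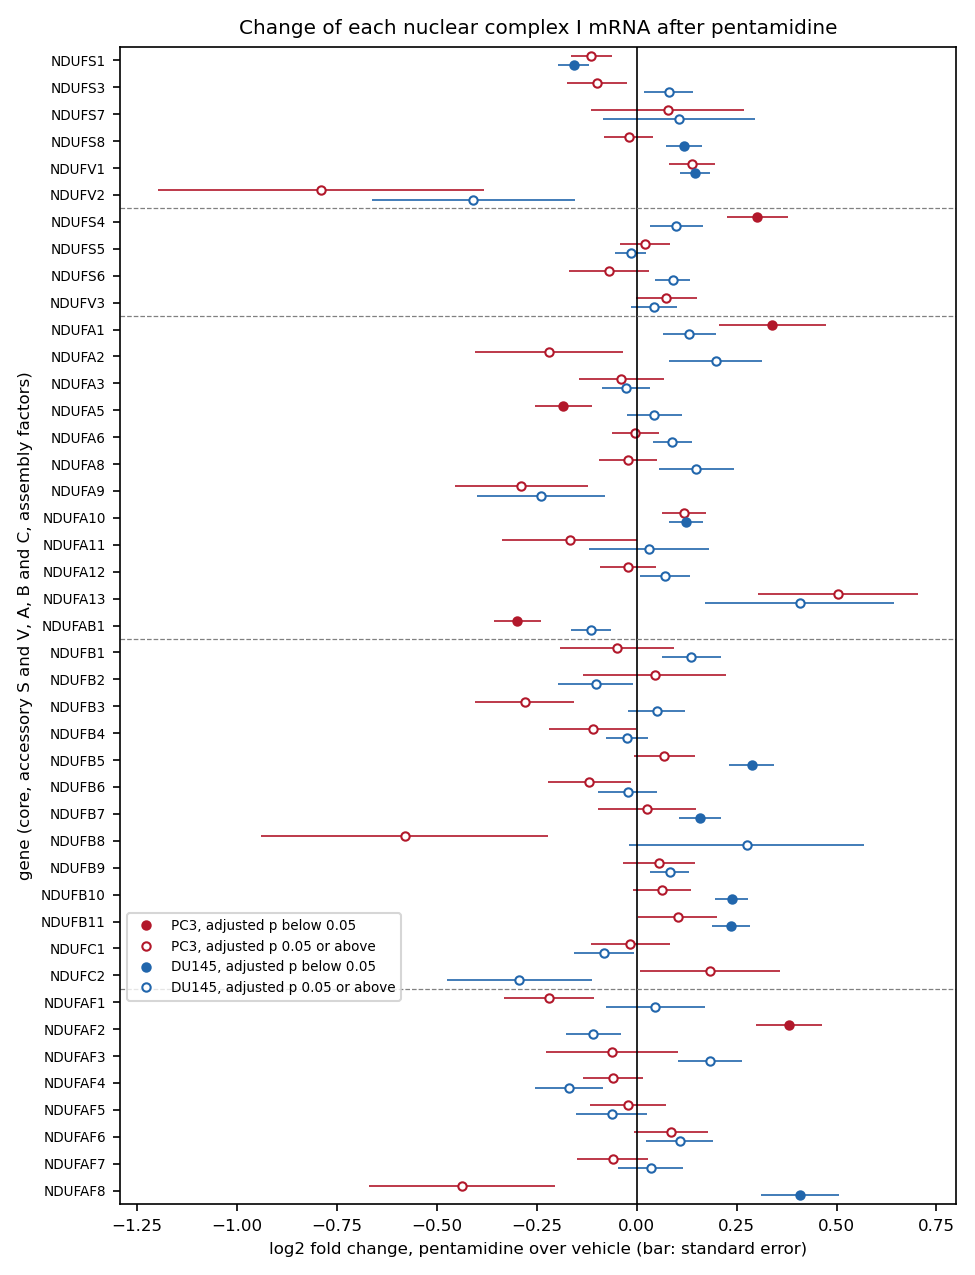
The log2 fold change of 43 nuclear complex I genes is plotted with its standard error in PC3 (red) and DU145 (blue), grouped by class, and filled points have an adjusted p below 0.05. All points lie between -0.79 and 0.50, and the 5 filled red points and 9 filled blue points fall on different genes.

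The core subunits carry the flavin and the iron-sulphur clusters. NDUFV1 binds NADH and the flavin. It was at 202, 189 and 189 CPM in DU145 vehicle and 222, 213 and 204 CPM in DU145 pentamidine samples. All treated samples lay above all vehicle samples, with a log2 fold change of 0.15 ± 0.037, adjusted p = 0.00154. PC3 cells had it at 182, 175 and 202 CPM with vehicle and 202, 209.9 and 201 CPM with pentamidine, a log2 fold change of 0.14 ± 0.057, adjusted p = 0.0596, and the highest vehicle sample reached the treated ones. It was called in PC3 without vehicle replicate 3 (0.20), with at least 10 counts required in every sample, and with all 12 samples in 1 fit. NDUFS1, the largest subunit and holder of several clusters, was the 1 core subunit called lower in DU145. It went there from 168, 168 and 172 CPM to 155, 144 and 154 CPM (-0.16 ± 0.038, adjusted p = 0.000804). The PC3 values were 177, 178 and 187 CPM and 161, 172 and 167 CPM, again without overlap, at -0.11 ± 0.051, adjusted p = 0.0821. The gene was called in PC3 without vehicle replicate 1 (-0.13, adjusted p = 0.0428), with scaling by library size alone, and with all 12 samples in 1 fit. NDUFV1 and NDUFS1 sit side by side at the NADH-oxidising tip, and their log2 fold changes had opposite signs in both lines.

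NDUFS8, which holds clusters close to the quinone site, was at 114, 118 and 112 CPM in DU145 vehicle and 135, 121 and 117 CPM in treated cells. The samples overlapped, and the call (0.12 ± 0.044, adjusted p = 0.0319) was lost with DESeq2, with no filter on low counts, with all 12 samples in 1 fit, and without DU145 vehicle replicate 1, vehicle replicate 3, pentamidine replicate 1 or pentamidine replicate 2, where the log2 fold change lay between 0.052 and 0.13. PC3 samples held it at 138, 135 and 149 and 141, 147 and 128 CPM (-0.019 ± 0.061, adjusted p = 0.822). NDUFS3, a core subunit of the quinone module, differed in sign between the lines without a call in either. It was at 63.3, 74.2 and 78.4 CPM and 65.4, 69.4 and 66.1 CPM in PC3 (-0.10 ± 0.075), and was called lower there without vehicle replicate 1 (-0.19, adjusted p = 0.0159). DU145 cells had it at 56.7, 59.6 and 57.5 and 70.1, 59.0 and 54.1 CPM (0.080 ± 0.061), and the log2 fold change was -0.033 without pentamidine replicate 1, its highest sample.

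NDUFS7 and NDUFV2 were counted at low levels. NDUFS7, holder of the last cluster before ubiquinone, was at 3.39, 3.69 and 4.79 CPM in PC3 vehicle, 3.98, 4.55 and 3.91 in PC3 pentamidine, 4.10, 3.57 and 4.26 in DU145 vehicle and 5.00, 4.34 and 3.47 CPM in DU145 pentamidine samples. The groups overlapped in both lines (0.077 ± 0.19 and 0.11 ± 0.19), and the PC3 value was -0.026 without vehicle replicate 1. NDUFV2, which carries the cluster beside the flavin, was at 0.813, 1.10 and 0.958 CPM and 0.337, 0.569 and 0.742 CPM in PC3. These rest on 5 to 17 counts per sample, and although the groups did not overlap the log2 fold change of -0.79 ± 0.41 was not called (adjusted p = 0.13). In DU145, NDUFV2 was at 2.16, 3.08 and 2.61 and 1.64, 2.31 and 1.94 CPM (-0.41 ± 0.26, adjusted p = 0.224). Changes of the size seen for the other core subunits were not detectable for NDUFV2 at this depth.

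Among the 29 accessory subunits, 4 were called in PC3, where 43.4% of all genes were. NDUFS4 (ENSG00000164258, chromosome 5, 53560633 to 53683340, plus strand, GRCh38), which steadies the NADH-oxidising module, was at 31.0, 36.4 and 33.6 CPM with vehicle and 40.4, 42.4 and 41.4 CPM with pentamidine. Every treated sample was above every vehicle sample, a log2 fold change of 0.30 ± 0.076, adjusted p = 0.00381. For DU145 the values were 32.7, 33.0 and 32.8 and 35.9, 34.0 and 35.3 CPM, also without overlap, and the gene was not called (0.10 ± 0.066, adjusted p = 0.263). NDUFAB1 (ENSG00000004779, chromosome 16, 23581002 to 23596356, minus strand), the mitochondrial acyl carrier protein, which also serves lipoate and iron-sulphur cluster synthesis, fell in PC3. It was at 91.5, 92.2 and 102 CPM with vehicle and 75.5, 78.7 and 77.0 CPM with pentamidine (-0.30 ± 0.060, adjusted p = 0.000629). DU145 samples held it at 68.2, 69.8 and 67.2 and 64.4, 63.7 and 60.8 CPM, without overlap and at -0.12 ± 0.050, adjusted p = 0.0707. For both genes the difference between the lines in the change was not called (0.20 ± 0.096, adjusted p = 0.145 and -0.18 ± 0.075, adjusted p = 0.0859). NDUFA5, a subunit of the quinone module, was at 55.5, 61.9 and 51.9 CPM and 49.9, 49.2 and 49.6 CPM in PC3. The call (-0.18 ± 0.071, adjusted p = 0.0455) was lost with DESeq2 (adjusted p = 0.0743), without PC3 vehicle replicate 2 (-0.11, adjusted p = 0.224) and without any one of the pentamidine samples, where the log2 fold change lay between -0.19 and -0.18. Its DU145 values were 29.9, 33.8 and 31.6 and 33.8, 32.9 and 31.4 CPM (0.044 ± 0.070). NDUFA1, a small membrane subunit named after its values were seen, was at 30.6, 50.9 and 47.2 CPM and 52.7, 60.8 and 49.0 CPM in PC3. The groups overlapped, and the call (0.34 ± 0.13, adjusted p = 0.0494) was lost with DESeq2 and without PC3 vehicle replicate 1 or any one of the pentamidine samples.

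In DU145 the accessory subunits called were 4 of the 13 in the NDUFB and NDUFC group and NDUFA10, all higher. The 4 are 30.8% of their group, near the 34.0% of all genes called. NDUFB5 (ENSG00000136521, chromosome 3, 179604690 to 179627647, plus strand), of the membrane arm, was at 48.6, 54.1 and 46.4 CPM with vehicle and 63.0, 59.5 and 58.9 CPM with pentamidine (0.29 ± 0.057, adjusted p = 6.56e-05). NDUFB10, a subunit that faces the intermembrane space, was at 125, 128 and 132 and 162, 148 and 143 CPM (0.24 ± 0.041, adjusted p = 6.89e-06). NDUFB11, encoded on the X chromosome, was at 82.0, 92.2 and 88.2 and 109.8, 101 and 97.6 CPM (0.24 ± 0.047, adjusted p = 7.67e-05). For these 3 genes all treated samples lay above all vehicle samples. The same genes in PC3 gave 0.068 ± 0.076, 0.064 ± 0.073 and 0.10 ± 0.098 on the log2 scale, from 54.9, 66.5 and 62.8 to 65.7, 67.2 and 59.7 CPM for NDUFB5. NDUFB10 in PC3 was at 102, 108 and 128 and 119, 121 and 113 CPM, and NDUFB11 at 83.0, 108 and 117 and 112, 118 and 98.7 CPM. In all 3 genes the PC3 groups overlapped. Their PC3 log2 fold changes were -0.012, -0.0085 and -0.035 without PC3 vehicle replicate 1, and the difference in change between the lines was called for NDUFB5, NDUFB10 and NDUFB11 (adjusted p = 0.0143, 0.0189 and 0.0162). NDUFB7, a subunit on the intermembrane-space side, was at 54.7, 56.6 and 54.6 CPM and 62.5, 60.6 and 61.4 CPM in DU145 (0.16 ± 0.053, adjusted p = 0.0151). Its call was lost with DESeq2 (adjusted p = 0.0612), with all 12 samples in 1 fit (adjusted p = 0.304), and without DU145 vehicle replicate 1, vehicle replicate 3 or pentamidine replicate 1, where the log2 fold change lay between 0.14 and 0.15. PC3 cells had it at 59.5, 79.0 and 99.8 and 81.5, 85.0 and 75.1 CPM (0.026 ± 0.12), a log2 fold change of -0.15 without vehicle replicate 1. NDUFA10, a membrane-arm subunit with the fold of a nucleoside kinase, was at 126, 111 and 118 and 127, 130.4 and 127 CPM in DU145 (0.12 ± 0.042, adjusted p = 0.0196). That call was lost with DESeq2 (adjusted p = 0.0828), with all 12 samples in 1 fit (adjusted p = 0.0899), and without DU145 vehicle replicate 2, vehicle replicate 3 or pentamidine replicate 2 (0.078 to 0.12). The PC3 values were 122, 121 and 129.5 and 131, 141 and 130.4 CPM (0.12 ± 0.055, adjusted p = 0.0971).

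By class, the NDUFA group had 3 of 12 subunits called in PC3 (25.0%) and 1 in DU145 (8.33%). The accessory NDUFS and NDUFV group had 1 of 4 in PC3 (25.0%). Of all genes tested, 43.4% were called in PC3 and 34.0% in DU145. In the NDUFB and NDUFC group none of 13 was called in PC3, where edgeR gave 1 at an unadjusted p below 0.05 and DESeq2 called none. Of the core subunits none of 7 was called in PC3, where 2 had an unadjusted p below 0.05 and DESeq2 called none, and 3 were called in DU145 (42.9%, against 34.0% of all genes). Without PC3 vehicle replicate 1, NDUFB3, NDUFB4, NDUFB6 and NDUFB8 of the first of these groups and the core subunits NDUFS1 and NDUFS3 were called lower in PC3. The remaining 20 of the 29 accessory subunits were called in neither line, and that share over all genes is not given here. Their log2 fold changes lay between -0.58 (NDUFB8) and 0.50 (NDUFA13) in PC3 and between -0.29 (NDUFC2) and 0.41 (NDUFA13) in DU145, and these 3 genes were counted at 6.325 CPM or less in every sample.

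The assembly factors were followed by the step they serve. NDUFAF2 (ENSG00000164182, chromosome 5, 60945129 to 61153037, plus strand), a relative of the subunit NDUFA12 that acts late, when the NADH-oxidising module is added, rose in PC3. It was at 38.5, 48.1 and 45.4 CPM with vehicle and 52.9, 59.5 and 59.0 CPM with pentamidine. The groups did not overlap, and the log2 fold change was 0.38 ± 0.083, adjusted p = 0.0013. The DU145 samples gave 40.1, 36.6 and 41.1 and 39.9, 36.8 and 32.4 CPM, with overlap (-0.11 ± 0.069, adjusted p = 0.233). The change differed between the lines by 0.49 ± 0.12, adjusted p = 0.00263, where 20.4% of the 15226 genes tested were called for such a difference. It was called with every sample left out in turn, at 0.41 to 0.57.

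NDUFAF8 (ENSG00000224877, chromosome 17, 81239239 to 81241281, plus strand), a partner of NDUFAF5, rose in DU145. It was at 13.4, 14.0 and 15.1 CPM with vehicle and 20.3, 18.6 and 17.4 CPM with pentamidine, without overlap (0.41 ± 0.097, adjusted p = 0.000692). PC3 samples held it at 46.0, 17.5 and 20.8 CPM with vehicle and 20.1, 20.8 and 21.1 CPM with pentamidine. The treated samples lay close together and the vehicle samples did not, since replicate 1 was far above the others, from 679 counts against 271 and 282. The PC3 log2 fold change was -0.44 ± 0.23, adjusted p = 0.143, and 0.11 (adjusted p = 0.409) without that library. It was called lower without PC3 vehicle replicate 2 (-0.70) or replicate 3 (-0.61). The difference between the lines was -0.85 ± 0.29, adjusted p = 0.0409, and -0.29 (adjusted p = 0.149) without PC3 vehicle replicate 1. That call was also lost without any one of the PC3 pentamidine samples or of the DU145 samples (-0.90 to -0.79, adjusted p = 0.054 to 0.0928). NDUFAF5, which hydroxylates NDUFS7, showed no such spread. It was at 19.4, 19.5 and 19.7 and 20.9, 17.1 and 19.6 CPM in PC3 (-0.022 ± 0.095). It stood in DU145 at 19.9, 19.4 and 20.0 and 17.7, 20.0 and 18.8 CPM (-0.063 ± 0.088).

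**Figure D3:**
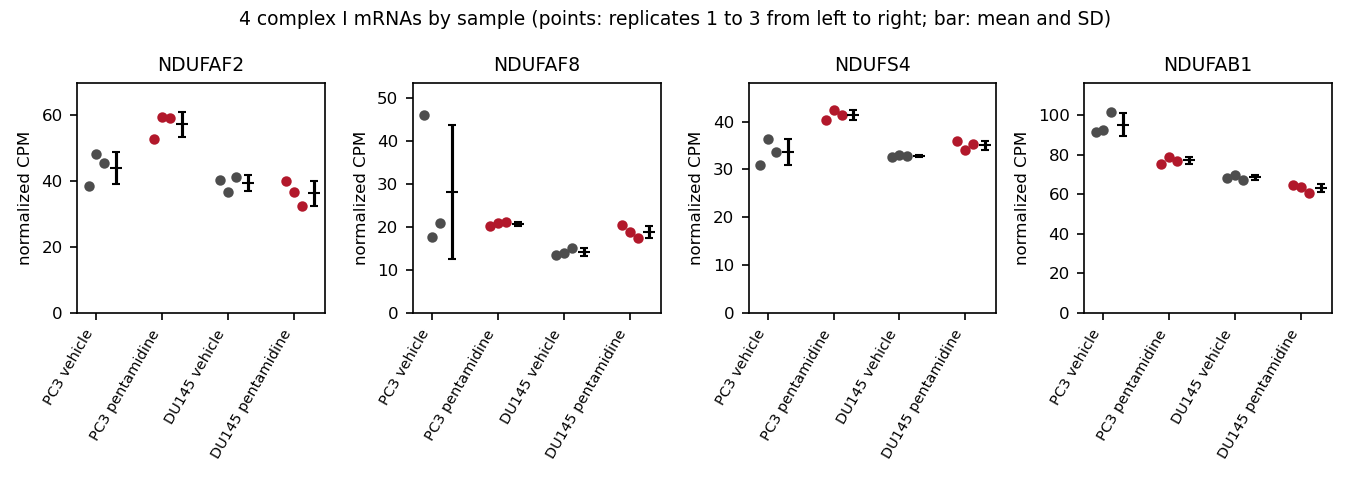
Normalized CPM of NDUFAF2, NDUFAF8, NDUFS4 and NDUFAB1 is plotted for each sample (points) with the mean and SD of each group. NDUFAF8 has 1 PC3 vehicle sample at 46.0 CPM, far from its mates at 17.5 and 20.8, whereas the groups of NDUFAF2, NDUFS4 and NDUFAB1 in PC3 are separate.

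The other assembly factors were called in neither line. NDUFAF1, of the complex that builds the membrane arm, was at 16.0, 20.6 and 19.9 and 17.5, 16.1 and 14.8 CPM in PC3 (-0.22 ± 0.11, adjusted p = 0.13), and was called lower without PC3 vehicle replicate 1 (-0.33, adjusted p = 0.00926). DU145 cells had it at 9.68, 11.5 and 10.2 and 13.1, 9.90 and 9.44 CPM (0.046 ± 0.12). NDUFAF3 and NDUFAF4 act together on the quinone module. NDUFAF3 was at 8.87, 12.2 and 13.9 and 12.4, 12.2 and 8.77 CPM in PC3 (-0.062 ± 0.16). In DU145 all its treated samples were higher, at 24.4, 25.7 and 23.8 CPM against 21.4, 21.6 and 22.3 (0.18 ± 0.080, adjusted p = 0.0724). NDUFAF4 was at 34.2, 37.7 and 33.2 and 32.2, 33.5 and 35.0 CPM in PC3 (-0.060 ± 0.076). For DU145 the values were 26.1, 27.3 and 24.3 and 22.6, 20.3 and 26.0 CPM (-0.17 ± 0.084, adjusted p = 0.114), and the gene was called lower without DU145 pentamidine replicate 3 (-0.27, adjusted p = 0.0191). The partners thus had opposite signs in DU145 without a call. NDUFAF6, needed early in the assembly of the membrane and quinone parts, was at 17.7, 18.5 and 17.7 and 18.5, 20.2 and 18.4 CPM in PC3 (0.086 ± 0.092). DU145 samples held it at 19.8, 20.2 and 20.3 and 20.8, 21.8 and 22.1 CPM (0.11 ± 0.084). NDUFAF7, a mitochondrial methyltransferase, was at 23.0, 26.3 and 24.3 and 22.0, 25.3 and 23.1 CPM in PC3 (-0.061 ± 0.089). Its DU145 values were 22.1, 23.3 and 24.7 and 23.4, 22.5 and 25.7 CPM (0.035 ± 0.082), and its groups overlapped in both lines.

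Besides NDUFAF2 and NDUFAF8, no member was called for a difference in change between the lines. An unadjusted p below 0.05 was found for 7 of the 44 members, beside 4785 of the 15226 genes tested. DESeq2 called NDUFAF2 and not NDUFAF8 (adjusted p = 0.216). Without PC3 vehicle replicate 1, 10 members were called, where 20.9% of all genes were. NDUFAF2 was 1 of them, and the other 9 were subunits with a lower change in PC3 than in DU145, between -0.66 (NDUFA2) and -0.23 (NDUFB10). Lower is the direction in which leaving out this library moves most members.

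Factors of complex I assembly that carry other names were measured beside the members. Of 13 such genes, 6 were called in PC3 (46.2%, against 43.4% of all genes) and 2 in DU145 (15.4%, against 34.0%), so that the share in PC3 was near that of all genes. ACAD9 and ECSIT, which work with NDUFAF1, fell in PC3 by 0.29 ± 0.073 and 0.20 ± 0.072 on the log2 scale (adjusted p = 0.00348 and 0.033). FOXRED1, TMEM70 and DMAC2 also fell in PC3 (-0.36 ± 0.070, -0.40 ± 0.095 and -0.22 ± 0.063). TIMMDC1, a membrane-arm factor, rose there (0.22 ± 0.072, adjusted p = 0.0211). In DU145, TMEM70 fell (-0.29 ± 0.067, adjusted p = 0.000491) and the insertase gene OXA1L rose (0.19 ± 0.040, adjusted p = 0.000171). The change differed between the lines, lower in PC3, for ACAD9, ECSIT, FOXRED1 and DMAC2 (30.8% of the 13, against 20.4% of all genes), while that of TMEM70 was not called as different (-0.11 ± 0.12, adjusted p = 0.582). TMEM126B, COA1, TMEM186, NUBPL, DMAC1 and TMEM126A were called in neither line.

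The summed nuclear mRNA of treated samples overlapped the range of the vehicle samples, while the mRNA of the mitochondria-encoded subunits fell. The 36 nuclear subunits summed to 2358 ± 217 CPM in PC3 vehicle and 2355 ± 109 CPM in PC3 pentamidine samples (SD, n = 3). In DU145 they summed to 2194 ± 35.4 and 2292 ± 105 CPM. The 8 assembly factors summed to 199.7 ± 4.50 and 200.3 ± 4.17 CPM in PC3 and to 175 ± 2.86 and 178 ± 3.72 CPM in DU145. The ratio of subunits to assembly factors was 11.8 ± 1.35 and 11.75 ± 0.446 in PC3, from 10.5 to 13.2 among the vehicle samples. In DU145 it was 12.6 ± 0.295 and 12.9 ± 0.340, and in both lines the groups overlapped. The 7 MT-ND mRNAs all fell, by 2.11 to 4.46 on the log2 scale in PC3 and by 2.56 to 5.40 in DU145. Their sum went from 10390 ± 371 to 1056 ± 38.4 CPM in PC3 and from 13390 ± 446 to 953.6 ± 10.04 CPM in DU145. The ratio of nuclear to mitochondria-encoded subunit mRNA was therefore 0.227 ± 0.0204 and 2.23 ± 0.0682 in PC3. In DU145 it was 0.164 ± 0.0057 and 2.40 ± 0.0980.

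**Figure D4:**
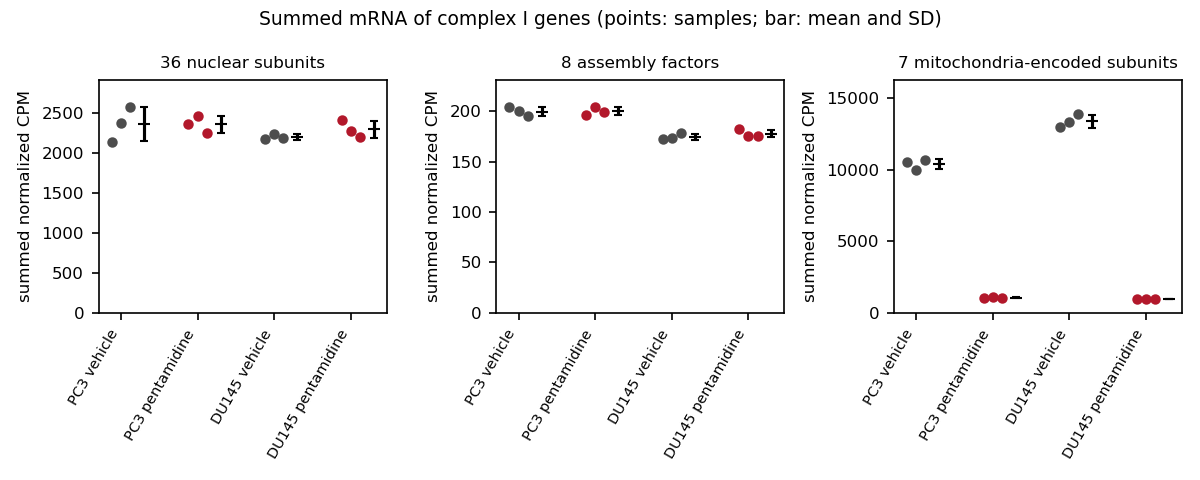
Summed CPM of the 36 nuclear subunits, the 8 assembly factors and the 7 mitochondria-encoded subunits is plotted per sample, with the mean and SD beside each group and axes from 0. The vehicle and pentamidine groups overlap for the nuclear sums, and the mitochondria-encoded sum is at most 1100.0 CPM in treated samples against at least 9981 CPM in vehicle samples.

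The relative left out by the rule, NDUFA4, which belongs to complex IV, was called in DU145 (0.17 ± 0.049, adjusted p = 0.00395) and not in PC3 (0.048 ± 0.098, adjusted p = 0.721). Its relative NDUFA4L2, a gene induced by hypoxia, rose from 11, 12 and 16 counts to 72, 119 and 81 counts in PC3 (2.80 ± 0.28, adjusted p = 4.78e-07). In DU145 it had 1, 2 and 0 counts with vehicle and 12, 15 and 23 counts with pentamidine (adjusted p = 2.9e-06), so that no fold is given.

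More members were called between the lines than with the drug in either line. Between the vehicle groups 23 of 44 members were called, where 65.3% of the 14394 genes tested were. Of these, 15 were higher in PC3, beside 31.5% of all genes, and 8 were lower, beside 33.8%. Without PC3 vehicle replicate 1 there were 29 calls (22 higher, 7 lower), beside 65.7% of all genes. Between the pentamidine groups 27 members were called (17 higher, 10 lower), beside 71.4% of all genes. In both comparisons, which share no sample, 18 members were called in the same direction (40.9%), against 54.4% of the 14077 genes tested in both.

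The accessory subunits given next were chosen after their values were seen. NDUFA8, an intermembrane-space subunit, was at 37.5, 42.0 and 42.5 CPM in PC3 vehicle and 16.0, 16.9 and 16.1 CPM in DU145 vehicle samples. The log2 difference was 1.29 ± 0.083, adjusted p = 7.94e-10, and 1.14 ± 0.077 between the pentamidine groups. NDUFA3, a small membrane subunit, went the other way, at 17.7, 17.5 and 21.3 against 50.9, 54.7 and 49.0 CPM (-1.48 ± 0.085, adjusted p = 2.09e-10). NDUFA5 and NDUFA6 were higher in PC3 (0.81 ± 0.078 and 0.69 ± 0.059), and NDUFB1 and NDUFS6 lower (-0.59 ± 0.13 and -0.58 ± 0.094). Among core subunits, NDUFS3 and NDUFS8 were higher in PC3 vehicle cells (0.29 ± 0.074 and 0.27 ± 0.053). NDUFV2 was lower (-1.47 ± 0.28), on few counts. Of the assembly factors, NDUFAF1, NDUFAF4 and NDUFAF8 were higher (0.82 ± 0.12, 0.41 ± 0.080 and 0.96 ± 0.25) and NDUFAF3 lower (-0.93 ± 0.13, adjusted p = 9.42e-06). Without PC3 vehicle replicate 1 the NDUFAF8 difference was 0.42 ± 0.11 (adjusted p = 0.00113), and those of NDUFAF1 and NDUFAF4 were 0.94 ± 0.12 and 0.44 ± 0.086. Between the pentamidine groups NDUFAF8 was at 0.13 ± 0.089, adjusted p = 0.174, and NDUFAF2 was called higher in PC3 (0.65 ± 0.066, adjusted p = 2.08e-12) after no call between the vehicle groups (0.14 ± 0.085, adjusted p = 0.163). It was called there too without PC3 vehicle replicate 1 (0.24, adjusted p = 0.00464).

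Per kilobase of the principal GENCODE release 29 transcript, subunits were counted at a median of 51.4 CPM per kb over the 12 samples and assembly factors at 10.9. The highest was NDUFS5, an intermembrane-space subunit, at 353 CPM per kb, followed by NDUFB10 at 181 and NDUFS8 at 164. NDUFAF2 was the highest assembly factor, at 61.5, and NDUFAF5 the lowest, at 3.50. These values rest on the length of the transcript chosen, which was 5529 bases for NDUFAF5, 8363 for NDUFA9 and 11819 for NDUFS1. By mean count over the 12 samples NDUFAF5, at 279, lay above NDUFAF1 at 203 and NDUFAF3 at 248. Subunits of 1 complex were not counted at 1 level per kilobase. NDUFA9, NDUFV2, NDUFC2, NDUFB8 and NDUFA13 were counted at 0.702 to 3.12 CPM per kb.

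The 5 members lowest per kilobase shared sequence with other annotated genes. In 7 members more than 10% of the principal transcript lay in exons of another gene on the same strand: NDUFV2 (82.9%), NDUFB8 (71.7%), NDUFA11 (67.0%), NDUFA13 (44.1%), NDUFC2 (17.1%), NDUFV1 (16.7%) and NDUFA9 (11.8%). Their median was 2.25 CPM per kb against 51.2 for the other 37 members. NDUFV1, at 78.8, and NDUFA11, at 11.5, were not among the lowest. In NDUFA7, which did not pass the count minimum, the share was 75.9%. NDUFV2 had 262 counts in all samples and its processed copy NDUFV2P1 had 650, and the copy of NDUFB8 had 15.8% of that gene's counts. The opposite strand of NDUFB2 overlapped exons of other genes over 83.4% of its transcript, that of NDUFB11 over 45.8%, that of NDUFA1 over 44.5% and that of NDUFS7 over 37.9%. The sources do not say whether counting used the strand, so the values of all these genes are uncertain. Whether the overlap set the low counts was not tested. Among the 36 members whose transcript had no same-strand overlap, 5 were called in PC3 and 7 in DU145 (13.9% and 19.4%, against 43.4% and 34.0% of all genes).

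**Figure D5:**
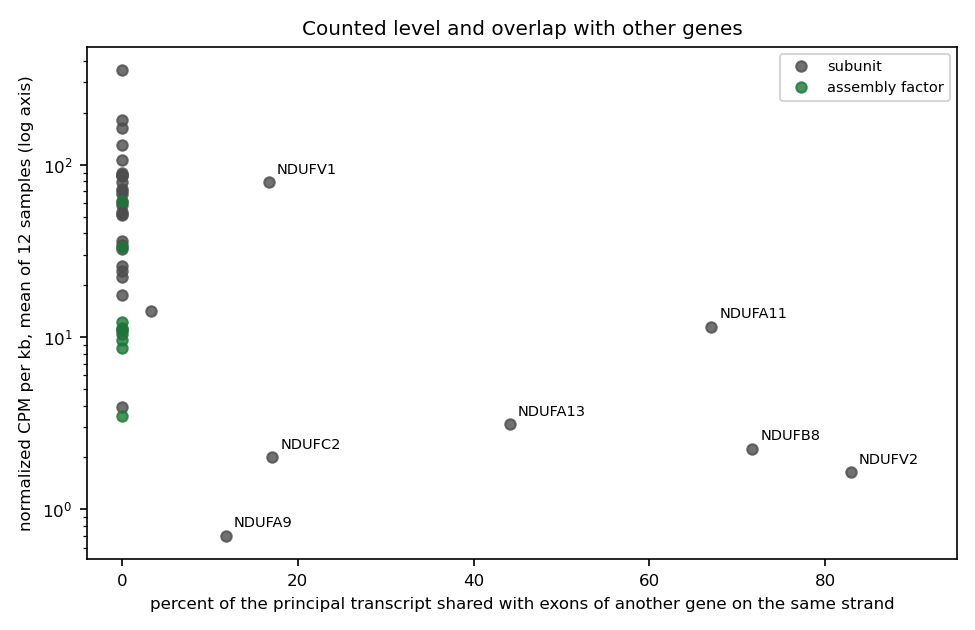
The mean CPM per kb over 12 samples (log axis) of each member is plotted against the percent of its principal transcript shared with exons of another gene on the same strand. The named points lie above 10%, and of these only NDUFV1 is above 50 CPM per kb.

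Promoter windows were read to show what the members share in sequence. RefSeq windows of GRCh38.p14, from 250 bases before to 50 after the gene start, were found for 38 of the 44 members, and those not matched included NDUFAF6, NDUFB5, NDUFB9, NDUFC2 and NDUFS5. The letters GCATGCGC, a short form of the site of nuclear respiratory factor 1, occurred on either strand in 7 of the 38 windows (18.4%), against 4.23% of the 15804 windows of other protein-coding genes. The median GC content was 60.5% and 62.7%. The matches were in 5 of 31 subunits and 2 of 7 assembly factors, and are shown with 10 bases on each side, 5′ to 3′ on the strand of the gene, with the match in capitals:
NDUFA6, chr22:42090921-42090948, minus strand: ctgtagatgaGCATGCGCagcacccacc
NDUFA8, chr9:122159766-122159793, minus strand: gttgccggatGCGCATGCgcaggcgccg
NDUFAF4, chr6:96897868-96897895, minus strand: cctcacttgtGCGCATGCtccgggtgtc
NDUFAF5, chr20:13785014-13785041, plus strand: agccgcgctgGCGCATGCgcacaaaaag
NDUFB4, chr3:120596167-120596194, plus strand: agagcacttcGCGCATGCgcatatcacc
NDUFS6, chr5:1801351-1801378, plus strand: cagaagccgtGCGCATGCgttagcgcta
NDUFS7, chr19:1383824-1383851, plus strand: tccggtttccGCATGCGCtccgagccgc

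A match is a run of letters and not a site shown to be bound. None of these 7 genes was called in either line on the main values, and their log2 fold changes with pentamidine were -0.0035, -0.022, -0.060, -0.022, -0.11, -0.069 and 0.077 in PC3 in the order shown. In DU145 they were 0.089, 0.15, -0.17, -0.063, -0.025, 0.090 and 0.11. Of these genes NDUFA6, NDUFA8, NDUFAF4, NDUFB4 and NDUFS6 were called between the vehicle groups of the lines, as were 65.3% of all genes, the first 3 higher in PC3 and the others lower. The NDUFB4 call was lost without PC3 vehicle replicate 1 (-0.13, adjusted p = 0.0656).

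The letters AAGATGGC, of the factor YY1, occurred in 5 windows (13.2%, against 3.88% of the others), and in each of them after the gene start, so that the letters fall at the head of the transcript. They are shown because NDUFS4, called in PC3, was among them:
NDUFA3, chr19:54102866-54102893, plus strand: cgcggagacaAAGATGGCtgcgagtaag
NDUFA6, chr22:42090730-42090757, minus strand: atgctttggcAAGATGGCggggagcggc
NDUFA9, chr12:4649114-4649141, plus strand: attgtgggaaAAGATGGCggctgccgca
NDUFS4, chr5:53560650-53560677, plus strand: tgcctgcagcAAGATGGCggcggtgtca
NDUFS7, chr19:1383914-1383941, plus strand: ggccgaggccAAGATGGCggtgctgtca

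The other 4 genes with this match were called in neither line. NDUFA6 and NDUFS7 held both motifs, at places that did not overlap. The ETS letters CCGGAAGT occurred in 2 windows (5.26%, against 6.19%), TGACCTTG of the oestrogen-related receptors in 1 (2.63%, against 1.03%), and TGATGNAA of ATF4 and C/EBP in 1, that of NDUFS6 (2.63%, against 2.53%).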

How the data were processed

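Poly(A) RNA of PC3 and DU145 cells was sequenced as paired reads in 12 samples, with 3 in each group. The values used are counts, the raw number of reads on each gene as the authors deposited them. Per the submitters' processing notes, HISAT2 2.1.0, DESeq 1.18.1 and the build GRCh38 were used, and the counting program and its strand setting are not given in the sources used here. The authors' tables of fold changes and p-values, and a further table of scaled values, were not used. Samples were grouped by their labels.

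Of 33639 entries, 44 were blank and were left out, and repeated entries were merged, which left 32077 genes. Counts were tested with edgeR 4.0.16 (R 4.3.3): filterByExpr at a minimum count of 10, TMM normalization, the quasi-likelihood test and Benjamini-Hochberg adjustment over all genes tested. Each treatment comparison used the 6 samples of its line, each comparison of the lines the 6 samples of 1 condition, and the difference in change between lines all 12. No value of a sample was imputed. Alternatives were DESeq2 1.42.0, other scalings and filters, all samples in 1 fit, the replicate number as a block and each sample left out.

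Values in every sample are given for the assembly factors, the core subunits, up to 5 accessory subunits per direction and line that were called and did not overlap, and members called for a difference between lines. The members and lists were chosen with earlier results of these data known. Gene positions were taken as the authors list them, and 43 of the 45 genes lay at the same position in GENCODE release 29. Overlap and length came from that release and promoters from RefSeq. Total counts were 13514195 to 15131436 per sample. Certain genes, a member of the complex among them, are counted in the totals but are not reported here by name. The reads carry no molecular identifiers.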

Additional observations from a re-analysis of the deposited data

Results flagged for a closer look

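The change of 2 members with pentamidine differed between the lines by the test of that difference itself (edgeR's quasi-likelihood test, Benjamini-Hochberg adjusted). NDUFAF2, a late assembly factor, had a change larger in PC3 than in DU145 by 0.49 on the log2 scale (SE 0.12, adjusted p = 0.00263), and its PC3 vehicle and pentamidine samples did not overlap (3 of 3 treated samples higher). NDUFAF8, the partner of NDUFAF5, had a difference of -0.85 (SE 0.29, adjusted p = 0.0409), with 3 of 3 treated samples higher in DU145. The NDUFAF8 difference was -0.29 (adjusted p = 0.149) without PC3 vehicle replicate 1, which had 679 counts of this gene against 271 and 282 in the other PC3 vehicle samples, and was not called with DESeq2 (adjusted p = 0.216). It also lost the call without any one of the 3 PC3 pentamidine or 6 DU145 samples, at -0.90 to -0.79, and kept it without PC3 vehicle replicate 2 or 3. No group was large enough for a search by rule for single samples far from the others, and PC3 vehicle replicate 1 was singled out from the members' values.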

How the results depend on the processing

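With an adjusted p below 0.01, 3 members were called in PC3, and with a further absolute log2 fold change above 1, 0 in PC3 and 0 in DU145. DESeq2 called 3 members in PC3 and 1 for a difference between lines. All 12 samples in 1 fit gave 8 calls in PC3 and 5 in DU145. Scaling by library size alone gave 15 calls in DU145 (14 higher), 6 differences between lines, and an assembly factor median of 0.091 in DU145. Leaving out each sample in turn gave 3 to 13 calls in PC3, 6 to 13 in DU145 and 1 to 10 differences between lines, with 13 and 10 without PC3 vehicle replicate 1. The assembly factor median in DU145 then lay between -0.011 and 0.081. The cause of these shifts was not tested. For DESeq2, the other scalings, the block, the fit of all 12 samples and the other left-out samples, the share of all genes called is not given here. These counts are therefore not read as particular to the members. With the replicate number as a block there were 4 calls in PC3 (NDUFA5 was lost, adjusted p = 0.0658), 9 in DU145 and 2 differences between lines. Same-numbered samples correlated at -0.156 to 0.0448 in PC3 and -0.0136 to 0.00247 in DU145, and not every sample correlated best with its own number. No effect shared by same-numbered samples was thus seen, which cannot show whether they were cultured together. Of 569 values of single genes recomputed, 512 kept their side of the threshold, and where not called moved by no more than the spread between samples, 35 lost and 13 gained the call, 9 moved by more than the spread, and 0 reversed. NDUFAF2, NDUFS4 and NDUFAB1 in PC3 and NDUFB5, NDUFB10, NDUFB11, NDUFV1 and NDUFS1 in DU145 kept their call in every alternative fit at the threshold of 0.05. NDUFAF8 in DU145 lost it only with all 12 samples in 1 fit (adjusted p = 0.187). Low counts limit NDUFV2 and NDUFB8, at 5 to 44 and 13 to 31 counts per sample.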
